A study of Mus musculus with 2 samples.

Results

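The 9 genes described here are Meis1, Meis2, Meis3, Pknox1, Pbx2, Pbx3, Pbx4, Tgif1 and Tgif2, mouse members of the Meis, Pbx and Tgif groups of TALE homeodomain genes. They were chosen by gene symbol, matched through Ensembl identifiers, and make up 9 of 43346 annotated genes and 9 of 21474 protein-coding genes in the tables. Further genes of these groups were not analysed here. Both libraries measured total RNA, 10 ng each, from the forebrain of healthy B6NCrl mouse embryos at embryonic day 10.5, with no transgene, mutation or treatment named. Replicate 1 was a pool of 69 embryos and replicate 2 a pool of 51, each of mixed sex, so a library stands for a pool and not for an animal. They form a single group with no contrast. Values are therefore given per library and as mean ± SD (n = 2), a pair of values belongs to replicate 1 and then replicate 2, ratios are replicate 1 over replicate 2, and no test is made, since an exact sign flip test over 2 libraries cannot give a p under 0.5.

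TALE proteins carry a homeodomain, the DNA-binding fold of many developmental regulators, lengthened by a 3-residue loop between its first and second helix. Meis and Pknox proteins bind Pbx proteins through their amino-terminal parts, and the pairs bind DNA beside Hox or other homeodomain proteins; in the embryonic head they work in eye, forebrain and craniofacial development. Tgif proteins share the fold but act mainly as repressors, binding Smad proteins of the TGF-beta and Nodal pathways and retinoid-response sites, and loss of human TGIF1 is a known cause of holoprosencephaly, a failure to divide the forebrain.

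The homeodomain separates the groups in sequence. The stretches below run from the loop into the third helix, 93 bases each, read from the complete coding transcript of highest TPM. They are shown because this part both defines the class and tells the groups apart. Capitals mark first the 3 codons of the loop and then the codon of homeodomain residue 50, a base-contacting position of the third helix.
Meis1: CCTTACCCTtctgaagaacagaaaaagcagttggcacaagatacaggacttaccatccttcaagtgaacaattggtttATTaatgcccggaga
Meis2: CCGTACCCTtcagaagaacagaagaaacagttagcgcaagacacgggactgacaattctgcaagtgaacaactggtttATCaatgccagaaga
Pknox1: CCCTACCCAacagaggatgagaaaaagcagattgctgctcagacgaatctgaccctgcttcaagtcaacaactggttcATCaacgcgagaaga
Pbx3: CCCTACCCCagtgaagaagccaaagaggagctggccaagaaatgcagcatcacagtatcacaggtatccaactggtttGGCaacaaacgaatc
Pbx4: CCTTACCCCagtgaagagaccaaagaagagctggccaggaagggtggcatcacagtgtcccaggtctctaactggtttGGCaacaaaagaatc
Tgif1: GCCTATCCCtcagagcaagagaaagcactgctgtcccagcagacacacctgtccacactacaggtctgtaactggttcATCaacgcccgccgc
Tgif2: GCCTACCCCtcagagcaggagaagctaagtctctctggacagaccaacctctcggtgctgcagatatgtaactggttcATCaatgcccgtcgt
Each stretch lies in 2 exons, at chr11:18885633-18905762 for Meis1, chr2:115868785-115921745 for Meis2 and chr2:34178313-34204842 for Pbx3, all on the minus strand of GRCm38. Those of Pknox1 (chr17:31602789-31603205), Pbx4 (chr8:69866541-69870058) and Tgif2 (chr2:156844319-156853158) are on the plus strand, and that of Tgif1 (chr17:70845243-70846234) on the minus strand. The loop codons encode proline, tyrosine and proline in all 4 Meis and Pknox members and all 3 Pbx members, and alanine, tyrosine and proline in both Tgif members. The codon of residue 50 encodes glycine in the 3 Pbx members and isoleucine in the other 6. Over the whole homeodomain of 63 codons, Meis1 and Meis2 encode the same residue at 62 positions, Pbx2 and Pbx3 at 61, and Tgif1 and Tgif2 at 54. Pknox1 shares 44 of 63 with each of Meis1, Meis2 and Meis3. Pairs from different groups share between 33.3% and 49.2% of residues (26 pairs), and pairs within a group between 69.8% and 98.4% (10 pairs). Bases were less alike than residues in close pairs: Meis1 and Meis2 were identical at 84.1% of homeodomain bases.

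The 2 libraries held 41537304 and 38012457 expected counts in annotated genes in replicates 1 and 2, and every member drew at least 513 counts in each. Spike-in controls took 7.83% and 7.01% of TPM, the unit of a gene's share among all transcripts after correction for length. The 8 neural progenitor markers were all detected, led by Vim, Hes5, Fabp7 and Nes, and so were all 8 neuron markers, with a median of 25.6 TPM in replicate 1 and 15.9 in replicate 2. Markers of non-neural cells were detected too. All 9 head mesenchyme markers, 8 endothelial and 8 erythroid markers were detected, with 6 of 8 macrophage, 7 of 8 surface epithelium and 7 of 10 optic and lens markers. Summed TPM was 19970 and 14727 for the erythroid list, 519 and 525 for mesenchyme, 184 and 192 for endothelium, 49.3 and 46.5 for macrophages, 141 and 133 for surface epithelium and 22.8 and 52.4 for optic and lens. Cryaa, the lens crystallin alpha A gene, was at 0 TPM in replicate 1 and at 0.110 TPM in replicate 2, from 3 counts. The part of these cells in the levels below was not tested, and in bulk RNA fewer cells of a type and less RNA per cell cannot be told apart.

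All 9 members were at 1 TPM or more in both libraries, a limit that 57.3% of protein-coding genes passed. The median member, Meis1, had a mean of 32.3 TPM, against a median of 20.2 TPM over the 12315 detected protein-coding genes. The lowest value of any member was 13.2 TPM. The Tgif group held the largest summed TPM, the Meis and Pknox group the next and the Pbx group the smallest.

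**Figure D1:**
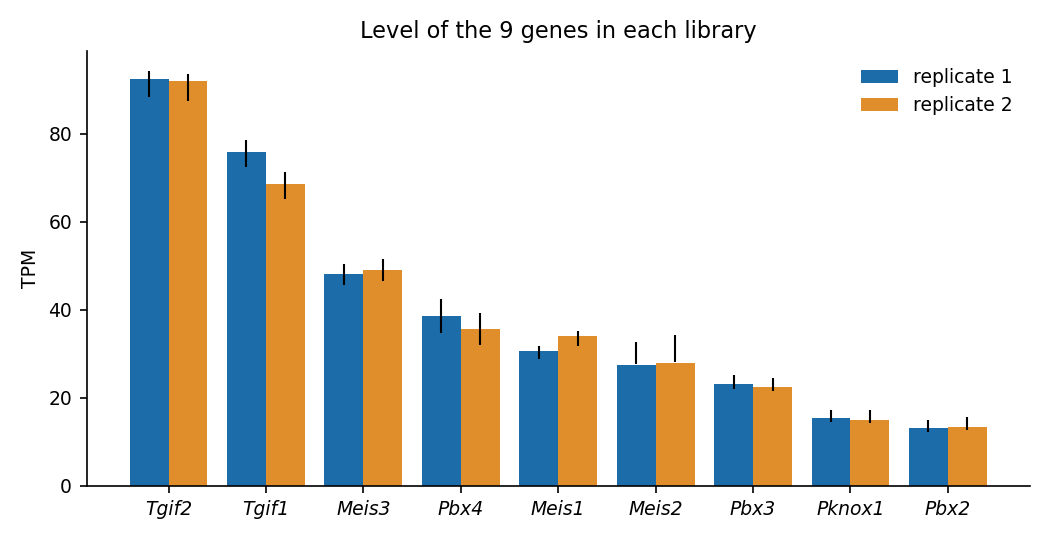
Bars give the TPM of each gene, replicate 1 at left and replicate 2 at right, in falling order of mean, and black lines are the intervals deposited with the TPM. Tgif2 (92.5 and 92.0 TPM) and Tgif1 (75.9 and 68.5) stand highest, Pbx2 (13.2 and 13.4) lowest, and the bars of Meis2 end below their own lines.

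In the Meis and Pknox group the highest level was that of Meis3, a gene best known from the hindbrain of frog and fish embryos. Meis3 (ENSMUSG00000041420, chr7:16175090-16186504) had 48.0 TPM in replicate 1 and 49.1 in replicate 2, from 2065 and 1928 counts. Meis1 (ENSMUSG00000020160, chr11:18879817-19018985), a regulator of eye progenitors and blood stem cells, had 30.7 and 33.9 TPM from 2245 and 2277 counts. Meis2 (ENSMUSG00000027210, chr2:115863064-116065839), which is active in striatal and cranial neural crest development, had 27.5 and 27.9 TPM from 2344 and 2079 counts. In both libraries Meis3 was highest and Meis2 lowest of these 3, without overlap. Pknox1 (ENSMUSG00000006705, chr17:31564734-31607693), also called Prep1, a broadly active Pbx partner, followed at 15.3 and 15.0 TPM from 1489 and 1362 counts.

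The 4 genes summed to 121 and 126 TPM. Meis3 gave 39.2 ± 0.367% of that sum, Meis1 26.1 ± 1.20%, Meis2 22.4 ± 0.380% and Pknox1 12.2 ± 0.448%. Meis3 transcripts were also the shortest of the 4, at a mean of 1655 and 1674 bases against 2743 and 2788 for Meis1. Without division by length, its counts relative to library size were below those of Meis1 and Meis2 in the mean of both libraries. For Meis2 the deposited TPM lay below the deposited interval of the same gene in both libraries, 27.7 to 32.6 TPM in replicate 1 and 28.2 to 34.2 in replicate 2. Its posterior mean TPM, a second deposited estimate, was 30.1 and 31.1. On that estimate Meis1, at 30.2 and 33.4 TPM, and Meis2 were no longer apart by more than their spread.

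In the Pbx group the gene TPM placed Pbx4 first. Pbx4 (ENSMUSG00000031860, chr8:69832491-69872292), a member best known from the testis, had 38.6 and 35.5 TPM. Pbx3 (ENSMUSG00000038718, chr2:34171457-34373142), which mice need for control of breathing by the hindbrain, had 23.1 and 22.4 TPM from 1510 and 1392 counts. Pbx2 (ENSMUSG00000034673, chr17:34591266-34597400), a broadly expressed member, had 13.2 and 13.4 TPM from 964 and 904 counts. In TPM the order was the same in both libraries, and of a sum of 75.0 and 71.3 TPM Pbx4 gave 50.7 ± 1.23%, Pbx3 31.1 ± 0.363% and Pbx2 18.2 ± 0.865%. Of their counts, without division by length, Pbx4 gave 19.2%, Pbx3 49.2% and Pbx2 31.7%.

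The high TPM of Pbx4 came from few counts spread over short transcripts. It drew 623 and 513 counts, the fewest of the 9 genes, and the tables gave it a mean transcript length of 682 and 678 bases, against 1560 bases for its complete coding transcript, Pbx4-201. That transcript, of 378 codons, held 1.13 and 0.750 TPM, or 2.52 ± 0.575% of the gene. The largest share lay in Pbx4-202, a model of 375 bases whose coding sequence is incomplete and holds no homeodomain, with 31.6% and 36.8%. Pbx4-205 and Pbx4-204, both annotated as targets of nonsense-mediated decay (the removal of messages with early stop codons), held 20.6% and 19.9%, and 14.7% and 16.0%. Pbx4-206, an intron-retaining model, held 9.01% and 13.1%. Of the gene's counts, which are not divided by length, Pbx4-201 held 7.36% and 5.32%, Pbx4-202 15.0% and 17.5%, and Pbx4-205 led with 29.5% and 28.6%.

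Dividing counts by the length of the complete coding transcript, an alternative chosen after the values were seen, gave Pbx4 rank 7 of 9, where gene TPM gave rank 4, at 9.61 and 8.65 CPM per kb, where CPM are counts scaled to a common library size. Pbx3 was then the highest of the group at 14.1 and 14.2, and Pbx2 the lowest at 7.57 and 7.75. Counting TPM in complete coding transcripts that hold the homeodomain, Pbx4 was last of 9, Pbx3 had 18.5 and 19.5 TPM and Pbx2 12.8 and 13.4. The lead of Pbx4 in its group therefore held on gene TPM only, among these scales. Tgif2, Tgif1 and Meis3 kept the first 3 places on all 3.

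**Figure D2:**
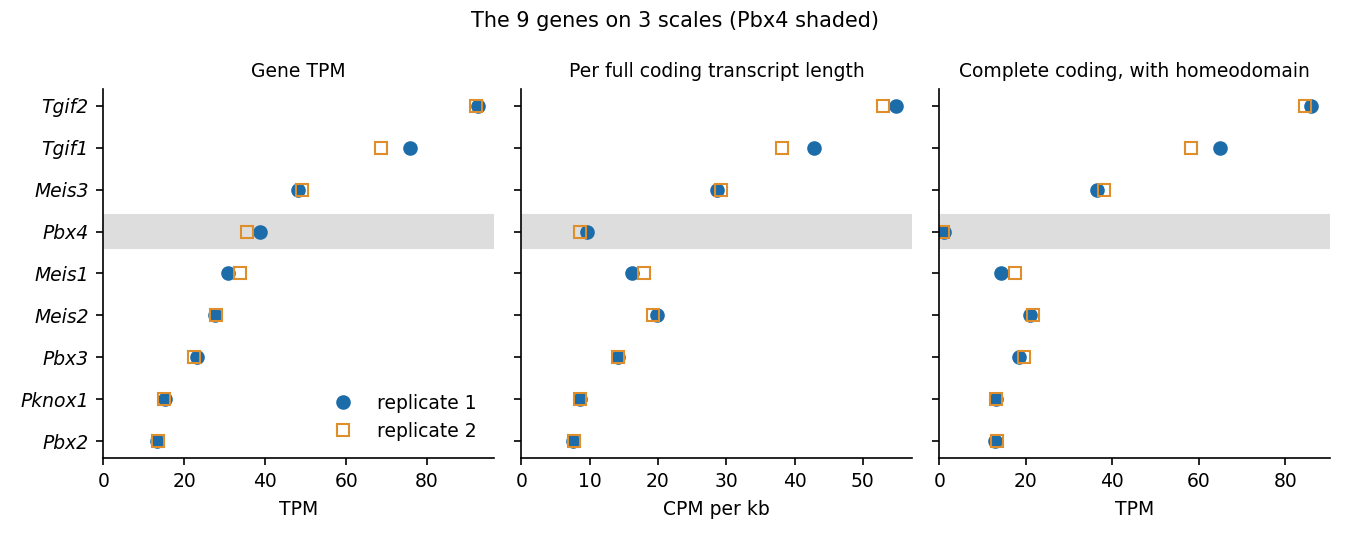
Each panel gives the 9 genes on another scale, filled circles for replicate 1 and open squares for replicate 2: gene TPM, CPM (counts scaled to a common library size) per kb of the complete coding transcript, and TPM of complete coding transcripts that hold the homeodomain. The shaded row, Pbx4, goes from 38.6 and 35.5 TPM in the first panel to 1.13 and 0.750 TPM in the third, while the top 3 genes stay in place.

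Both Tgif genes lay above every Meis and Pbx member. Tgif2 (ENSMUSG00000062175, chr2:156840007-156855570), a repressor that acts on Nodal signals with Tgif1 in early embryos, had 92.5 and 92.0 TPM from 6607 and 5830 counts. It stood above 85.0% of detected protein-coding genes. Tgif1 (ENSMUSG00000047407, chr17:70844205-70853546), the counterpart of the human holoprosencephaly gene, had 75.9 and 68.5 TPM from 3054 and 2489 counts and stood above 80.7%. Together they reached 168 and 161 TPM, or 46.2% and 44.9% of the 9-gene sum, and Tgif2 gave 56.1 ± 1.67% of their own sum. The exons of Tgif2 share 2171 bases with 5430405H02Rik, a gene on the opposite strand with 569 and 527 counts of its own. No source used here says whether counting used strand, so some reads of this pair may sit with the other gene.

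Ordered by mean TPM, all 8 pairs of neighbours kept their order in both libraries with a mean log2 difference above its SD. The gaps were 0.36 ± 0.10 between Tgif2 and Tgif1, 0.57 ± 0.13 between Tgif1 and Meis3, and 0.39 ± 0.11 between Meis3 and Pbx4. The next were 0.20 ± 0.19 between Pbx4 and Meis1, 0.22 ± 0.09 between Meis1 and Meis2, and 0.28 ± 0.05 between Meis2 and Pbx3. Pbx3 exceeded Pknox1 by 0.59 ± 0.02 and Pknox1 exceeded Pbx2 by 0.18 ± 0.03. The weakest step was that from Pbx4 to Meis1, 0.33 in replicate 1 but 0.07 in replicate 2.

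The pools gave close values for these genes, as for most genes. None of the 9 differed more than 2-fold, against 0.585% of the 13842 genes that averaged at least 50 counts. All 9 lay within 1.5-fold, a limit for which the share of all genes was not computed. The median absolute log2 ratio was 0.043 for the members and 0.084 for all 13842 genes, which include genes of far fewer counts. Genes within 0.5 log2 units of a member's mean count had a median of 0.063 for Meis1, 0.058 for Tgif1 and 0.108 for Pbx4. Those members exceeded these medians in absolute ratio, and the other members did not exceed theirs at 2 decimals. The counting interval of the ratio excluded 1 for 2 of 9 members, Meis1 at a log2 ratio of -0.16 (95% exact binomial interval -0.24 to -0.07) and Tgif1 at 0.16 (0.08 to 0.24). It did so for 34.4% of the 13842 genes, and it covers counting error only. The other 7 ratios ran from -0.04 for Meis3 and Pbx2 to 0.14 for Pbx4, whose interval was the widest at -0.03 to 0.32. By contrast, the retinoic acid enzyme Aldh1a1 had 0.760 and 7.75 TPM and the eye field gene Rax 3.47 and 9.79, each more than 2-fold apart between the pools.

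The genes differed in what their transcript models encode. The 9 genes had 85 transcripts in the tables, of which 84 were found in the GENCODE M21 annotation and 16 were at 0 TPM in both libraries. Complete coding transcripts with the homeodomain held 98.6 ± 2.03% of Pbx2, 92.4 ± 0.843% of Tgif2, 86.3 ± 1.71% of Pknox1, 85.1 ± 0.539% of Tgif1 and 83.5 ± 5.17% of Pbx3. They held 77.0 ± 1.44% of Meis2, 76.7 ± 1.05% of Meis3, 48.7 ± 3.40% of Meis1 and 2.52 ± 0.575% of Pbx4. Over transcripts annotated as protein-coding, complete or not, the median member had 85.1% and 87.6% of its TPM, against 91.3% in each library for 6181 protein-coding genes of 10 TPM or more with several transcripts. Pbx4, at 34.6% and 38.9%, and Meis1, at 46.3% and 51.1%, had lower coding shares than the rest, and 5.68% and 9.84% of those genes lay below them. Such shares depend on which models are annotated for a gene.

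**Figure D3:**
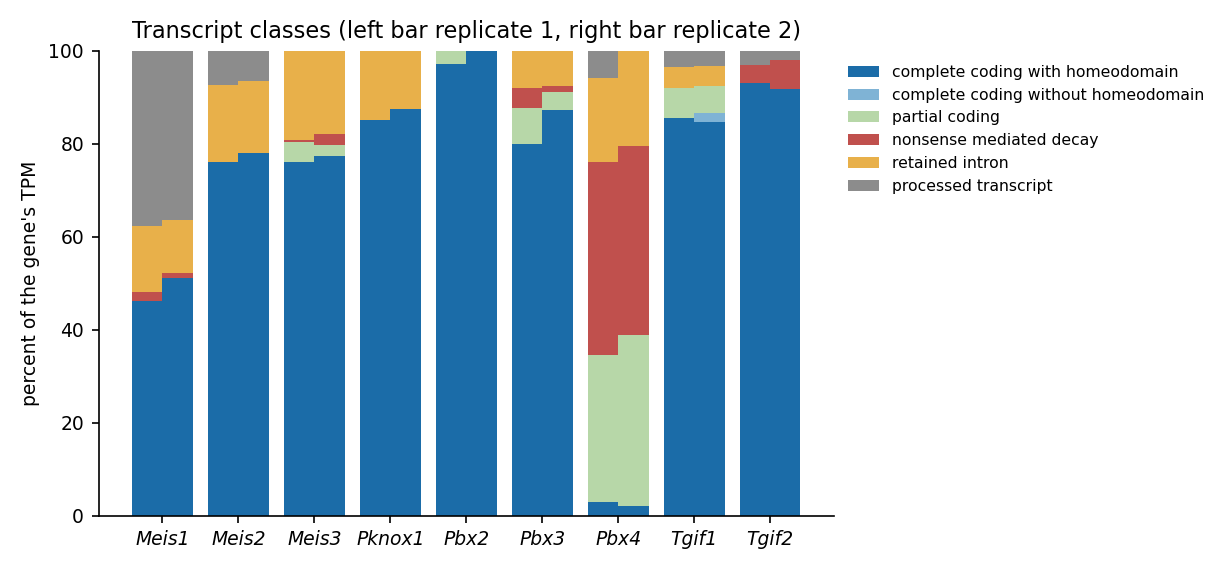
Stacked bars split the TPM of each gene by the class of its transcripts, in percent, with replicate 1 in the left bar and replicate 2 in the right. Meis1 shows a large block without coding sequence (37.6% and 36.3%) and Pbx4 almost no complete coding transcript, while the other 7 genes are mostly complete coding.

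Meis1 divided between a coding and a noncoding transcript. Meis1-201, the coding transcript of 390 codons, held 43.5% and 46.6%. Meis1-203, a model with no coding sequence that begins inside the gene, held 37.6% and 36.3%, or 11.6 and 12.3 TPM. The deposited intervals of these 2 overlapped in both libraries, 10.8 to 14.0 and 9.62 to 13.0 TPM in replicate 1, and 12.8 to 16.9 and 10.1 to 14.1 TPM in replicate 2. Meis1 exons also share 1029 bases with Gm37818, an unclassified gene on the same strand with 58 and 31 counts. Intron-retaining models were a second source of noncoding signal: the median member had 14.1% and 11.5% of its TPM in them, against 1.65% and 1.63% for the 6181 genes. Genes with no annotated model of this class entered these medians as 0, so the medians depend on which models are annotated. Retained introns reached 19.1% and 17.8% in Meis3, 18.0% and 20.4% in Pbx4 and 16.7% and 15.6% in Meis2. They were lower in Pbx3 (7.90% and 7.46%) and Tgif1 (4.57% and 4.25%). Pbx2 had 0 in both libraries, and Tgif2 has no such model.

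The Meis genes can end their proteins in different ways. In mouse, Meis1 and Meis2 share a 95-base exon after the homeodomain which, when included, brings an early stop codon and gives a shorter protein. For Meis1 the short form has 390 codons and the long one 465, and for Meis2 the corresponding models have 401 and 477. The 56 coding bases of that exon were identical at 53 positions (94.6%) between the genes. They are shown because the 2 genes were estimated to use this near-identical exon to different extents.
Meis1 exon: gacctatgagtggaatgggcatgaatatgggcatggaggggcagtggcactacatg
Meis2 exon: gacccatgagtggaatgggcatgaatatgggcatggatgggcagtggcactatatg
The coding parts lie at chr11:18884027-18884082 and chr2:115866849-115866904, minus strand. Of the complete coding TPM of Meis1, 98.6% in replicate 1 and 96.1% in replicate 2 included the exon. Of that of Meis2, 60.3% and 51.1% did, leaving 8.30 and 10.6 TPM for the long form. The 2 genes did not overlap, at 97.4 ± 1.73% for Meis1 and 55.7 ± 6.54% for Meis2. The complete coding Meis2 models without the exon, Meis2-201 and Meis2-203, are also the only ones that start at position 116065047. Use of the exon and use of that start therefore cannot be told apart here. The deposited intervals of these models began at 0.00135 and 0.0572 TPM in replicate 1.

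Meis2 further varied by a segment of 21 coding bases at chr2:115867359-115867379 (minus strand) upstream of that exon, which adds 7 residues and keeps the frame.
Meis2 segment: gttttcttcttgatccttcag
Transcripts with it made up 36.0% and 43.6% of the complete coding TPM. Meis2 was also the only member whose leading transcript differed between the libraries: Meis2-202 led replicate 1 at 22.6% (20.9% in replicate 2) and Meis2-201 led replicate 2 at 27.9% (8.27% in replicate 1). Meis2-203 had 21.9% and 10.2%. Meis2-213, an intron-retaining model, had 13.2% and 11.5%, and by counts it led replicate 1 at 23.2%. The deposited intervals of Meis2-201 were 0.00135 to 7.05 TPM in replicate 1 and 2.30 to 9.80 in replicate 2, and so overlapped between the libraries. Meis2-205 (17.4% and 3.06%) and Meis2-206 (4.10% and 13.0%), named after their values were seen, differed between libraries in opposite directions, and they are told apart by the 21-base segment alone. Of the 6181 genes 94.7% had the same leading transcript in both libraries, against 8 of 9 members.

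**Figure D4:**
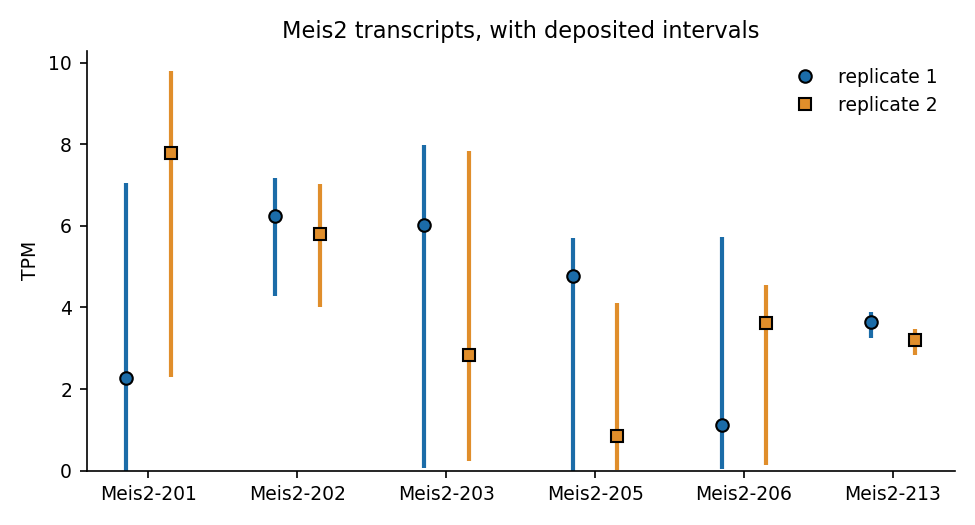
Points give the TPM of 6 Meis2 transcripts, circles for replicate 1 and squares for replicate 2, and lines are the deposited intervals. The intervals of Meis2-201, 203, 205 and 206 are wide and overlap between libraries, whereas Meis2-202 and the intron-retaining Meis2-213 are narrower and close in both.

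Meis3 was carried by Meis3-201, of 378 codons, with 56.5% and 61.0%, and Meis3-205, of 361 codons, with 19.4% and 16.5%. An intron-retaining model, Meis3-202, had 12.0% and 12.4%. The coding models differ by 51 bases at chr7:16178951-16179001 (plus strand), upstream of the homeodomain.
Meis3 segment: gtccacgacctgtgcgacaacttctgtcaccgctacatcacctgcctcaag
The segment was in 74.4% and 78.7% of the complete coding TPM. The coding models also start at different positions, 16175430 for Meis3-201 and 16175275 for Meis3-205. Use of the segment and use of the start therefore cannot be told apart. Pknox1 had a single main transcript, Pknox1-201 of 436 codons, with 74.7% and 82.1%.

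Pbx3 was mainly in its short form. Skipping of a 113-base exon after the homeodomain changes the reading frame and replaces the carboxy-terminal part, so that Pbx3-202 has 351 codons and Pbx3-201, with the exon, 434. The exon lies at chr2:34176749-34176861 (minus strand) and is shown because its use divides the gene.
Pbx3 exon: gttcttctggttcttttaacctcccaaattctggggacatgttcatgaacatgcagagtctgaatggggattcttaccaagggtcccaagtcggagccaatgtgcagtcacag
Pbx3-202 held 54.3% and 60.0% of the gene and Pbx3-201 25.6% and 27.2%. The exon was in 32.1% and 31.2% of the complete coding TPM, and the deposited intervals of the 2 transcripts did not overlap in either library (10.9 to 13.6 against 4.46 to 7.26 TPM in replicate 1, and 11.7 to 14.5 against 4.41 to 7.19 in replicate 2). For Pbx2 the full form, Pbx2-201 of 430 codons, held 72.8% and 74.7%. Pbx2-203, which starts upstream and encodes 348 codons, held 24.4% and 25.3%, from 168 and 160 counts. It has 161 codons before the homeodomain in place of 243. Pbx2 exons share 227 bases with Gpsm3, a protein-coding gene on the same strand with 122 and 131 counts, so that reads there cannot be told apart by strand.

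The Tgif genes varied at their starts and ends, and the Tgif transcripts described below all kept the homeodomain. Not every Tgif model did: Tgif1-211, a complete coding transcript of 84 codons, lacks it and had 0 and 1.31 TPM. Tgif2-202, of 237 codons, held 67.3% and 61.0%, and Tgif2-201, of 198 codons, 25.6% and 30.8%. They differ by 117 coding bases at chr2:156853229-156853345 (plus strand), 3′ of the homeodomain, which begin with gt and end with ag as introns commonly do. The Meis2 and Meis3 segments and the Pbx3 exon printed above also begin with gt and end with ag.
Tgif2 segment: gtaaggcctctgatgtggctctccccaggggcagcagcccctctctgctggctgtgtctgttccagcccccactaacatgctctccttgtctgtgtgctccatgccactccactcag
This segment was in 72.4% and 66.5% of the complete coding TPM, or 62.3 and 56.1 TPM, so most Tgif2 messages were estimated to keep it. Tgif2-202 and Tgif2-201 also start at different positions, 156840007 and 156840100, so use of the segment and of the start cannot be told apart.

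**Figure D5:**
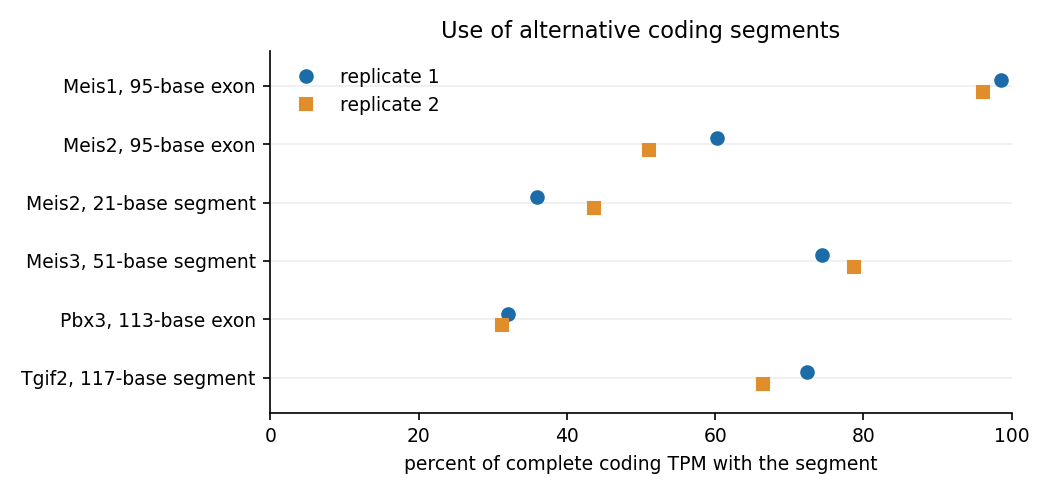
Points give the percent of complete coding TPM that includes each alternative coding segment, circles for replicate 1 and squares for replicate 2. Meis1 includes the 95-base exon almost always (98.6% and 96.1%), Meis2 includes it in 60.3% and 51.1%, and Pbx3 mostly lacks its 113-base exon (32.1% and 31.2% with it).

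Tgif1 transcripts were estimated to begin at several sites, and Tgif1-201 differed from Tgif1-202 and Tgif1-210 in the number of codons before the homeodomain. Tgif1-201, of 272 codons, with 34 codons before the homeodomain, held 51.7% and 52.0% of the gene. Tgif1-202 and Tgif1-210, both of 252 codons with 14 before the homeodomain, held 23.2% and 24.1%, and 10.2% and 8.24%. Among complete coding transcripts the start of Tgif1-201 (chr17, position 70851207, minus strand) gave 60.9 ± 0.600%, that of Tgif1-202 (70853546) 27.8 ± 0.857% and that of Tgif1-210 (70849790) 10.8 ± 1.52%. The 100 bases before the nearest RefSeq start (GRCm38.p6) are shown because the data divide the gene between these starts.
Tgif1-201 promoter: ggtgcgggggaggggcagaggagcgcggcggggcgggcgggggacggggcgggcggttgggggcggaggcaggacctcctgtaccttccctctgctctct
Tgif1-202 promoter: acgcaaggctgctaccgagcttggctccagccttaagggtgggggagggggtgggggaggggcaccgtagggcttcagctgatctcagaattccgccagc
Tgif1-210 promoter: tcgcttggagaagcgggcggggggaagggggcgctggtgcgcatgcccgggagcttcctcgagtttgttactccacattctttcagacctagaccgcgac
They lie at chr17:70851211-70851310, chr17:70853533-70853632 and chr17:70849791-70849890. The last bases of the stretch for Tgif1-202, from 70853546 on, lie inside that transcript model, which starts before the RefSeq start. The 300-base windows around these starts held 68.7%, 58.0% and 52.0% G or C, in the order shown. The window of a further complete coding start, at 70851734, held 60.3%, though that start gave only 0.458 ± 0.0587% of complete coding TPM. G and C content thus did not follow use over all of these starts. The motif TGACAG, a preferred site of Tgif and Meis proteins, was searched on both strands of the promoter windows of 7 members (11 windows; 5 of Tgif1). It was in 2 windows, both of Tgif1 (18.2%), against 19.2% of all 32851 windows, so the share was near that of promoters in general. One of them belongs to the leading start, at chr17:70851186-70851215, where capitals mark the motif.
Tgif1 motif: tctctcactcTGACAGcgccgaggtgcgcc

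Partners of the 9 genes were read from lists chosen with earlier results of these data known, beside the 57.3% of protein-coding genes detected. Of 30 Hox genes, the best known partners of Pbx and Meis proteins, none reached 1 TPM in both libraries, 18 were at 0 in both, and the highest means were 0.0750 TPM for Hoxa7 and 0.0700 for Hoxd3, with at most 6 counts in a library. A count of 0 allows up to 3 counts, for counting error only. Genes for other homeodomain and paired proteins that bind with Meis or Pbx were mostly detected, 8 of 11. Pax6, an eye and pallium regulator that works with Meis proteins, had 64.9 and 67.9 TPM. Otx2, a Meis2 partner in the midbrain roof of the chick, had 56.0 and 48.8 TPM, and the telencephalic genes Emx2 and Dlx1 had 40.8 and 37.7, and 27.4 and 28.1 TPM. Among the undetected were the midbrain genes En1 and En2 and the pancreas gene Pdx1, which was at 0 in both. Of 7 further TALE genes only Irx3, Irx5 and Mkx passed, led by Irx3 at 10.9 and 10.7 TPM, below every one of the 9 members. Irx1, Irx4 and Irx6 were under 1 TPM in both.

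RNA for the proteins through which Meis, Pbx and Tgif act was broadly detected. All 7 Pbx and Meis cofactors passed, with the histone deacetylases Hdac1 at 249 and 274 TPM and Hdac3 at 152 and 155, the corepressor Ncor1 at 109 and 107, and the acetyltransferase Crebbp at 25.4 and 26.0. All 11 Smad and corepressor partners of Tgif passed, with a median of 41.5 and 42.3 TPM. Ctbp1, a corepressor that Tgif1 recruits, had 309 and 317 TPM, Hdac2 262 and 269 and Ctbp2 113 and 106. Smad2 and Smad3, the Nodal and TGF-beta effectors that Tgif proteins bind, had 41.5 and 42.3, and 21.6 and 18.9 TPM.

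Of 16 genes tied to holoprosencephaly 14 passed, led by Gas1, a Hedgehog co-receptor, at 61.6 and 62.0 TPM, Fgfr1 at 52.1 and 52.8, Dll1 at 45.0 and 47.9 and Smo, the Hedgehog signal transducer, at 40.6 and 42.5. The Nodal pathway genes on that list were low: Nodal had 0.420 and 0.360 TPM and its co-receptor Tdgf1 0.360 and 0.240, both under 1 TPM in both libraries, and the transcription factor Foxh1 1.98 and 1.33. They were not the only low genes of the list, since Shh had 2.04 and 2.37 TPM. Of 17 genes of retinoic acid handling 13 passed, led by the binding proteins Crabp1 at 1010 and 903 TPM and Crabp2 at 706 and 739, the receptor Rxrb at 37.5 and 40.7 and the membrane receptor Stra6 at 27.9 and 31.6. Aldh1a2, Cyp26b1 and Cyp26c1 were under 1 TPM in both.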

How the data were processed

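The authors deposited a gene and a transcript table per library, quantified on mm10 with annotation M4, per the notes deposited with the samples; no source used here names the software. Deposited expected counts are estimated reads, not normalized, per the file headers. The deposited TPM of a gene is its length-adjusted share of all 69691 rows, spike-ins among them. The deposited percent that each transcript contributes to its gene, and posterior means of these values, are estimates from reads that transcripts share; the level of the deposited intervals is not stated. Short transcripts gain TPM from few reads.

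Genes were named through Ensembl identifiers. Classes, coding sequences and coordinates came from GENCODE M21 (GRCm38); 80 of 84 matched transcripts had the deposited length, and the other 4 belong to Pknox1. A complete coding transcript has annotated start and stop. Homeodomains were found by the conserved third-helix residues; printed promoters are RefSeq's. Ratios used expected counts + 0.5 over library sizes scaled by TMM factors (edgeR 4.0.16, R 4.3.3) from 16637 genes that reached 10 counts in both libraries, rounded. These steps, tested on simulated data, are in Python 3.11.15 with numpy 2.4.6 and pandas 2.3.3. Neighbours were compared as log2(TPM + 0.1).

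The members and lists were chosen with earlier results of these data known. All 9 members are described; of other lists up to 4 genes of highest mean and up to 3 under 1 TPM in both libraries are named, with transcripts of 10% or more (up to 4 per gene). Rax, Aldh1a1, Foxh1, Shh, Smad2 and Smad3 are outside that rule and were named after their values were seen.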

Additional observations from a re-analysis of the deposited data

How the results depend on the processing

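All 9 members stayed detected with TPM limits of 0.5 and 5, on the posterior mean and in each library alone, and none passed 2-fold under DESeq2 1.42.0 size factors, total counts, TPM, unfiltered TMM factors or a mean count of 10. The median level of 32.3 TPM was 34.9 without spike-in rows, 50.2 CPM without length, 17.0 CPM per kb of the complete coding transcript and 19.0 TPM over complete coding transcripts with the homeodomain; it was 33.9 without replicate 1 and 30.7 without replicate 2. The last 2 scales were chosen after seeing the data. The mean share of the leading members (Meis3, Pbx4 and Tgif2) in their groups was 48.7%. It was 48.0% on the posterior mean and 37.9% on counts without length. On those counts Meis1 (28.7%) and Meis2 (28.0%) stood above Meis3 (25.3%), but Meis1 and Meis2 were not apart in both libraries. Pbx3 then led the Pbx group (49.2%, with Pbx2 at 31.7% and Pbx4 at 19.2%). The median share of the leading transcript, 57.1%, was 61.3% of expected counts; on counts Pbx4-205 led Pbx4 in both libraries, and Meis2-213 led Meis2 in replicate 1. The posterior mean kept the order, with 7 of 8 neighbouring pairs apart (all but Meis1 and Meis2). On 3 other scales the order itself changed, and 7 of 8 pairs of the new neighbours were apart on each. Counts without length placed Meis1 and Meis2 at ranks 3 and 4, Meis3 at 5 and Pbx4 at 9; the complete coding length placed Meis2 at 4, Meis1 at 5, Pbx3 at 6 and Pbx4 at 7; homeodomain TPM placed Meis2 at 4, Pbx3 at 5, Meis1 at 6 and Pbx4 at 9. The share of the 95-base exon was 95.2% for Meis1 and 56.8% for Meis2 on the posterior mean. The log2 ratios of Meis2, Pbx3 and Pknox1, 0.04, -0.02 and -0.01, were -0.02, 0.05 and 0.02 on deposited TPM, all near 0 and inside their counting intervals. No paired analysis was possible because the labels give a single group. Depth limits the short and rare transcripts most: Pbx4 rests on 623 and 513 counts, and with 2 pools an SD has little precision.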
